A study of Mus musculus with 15 samples.

Results

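The genes described here code for the matrix metalloproteases (Mmp), the membrane-anchored ADAM proteases (Adam), the secreted ADAMTS proteases (Adamts), the ADAMTS-like proteins (Adamtsl) and the tissue inhibitors of metalloproteases (Timp). Members were chosen by symbol, as every protein-coding mouse gene named with one of these prefixes followed by a number alone. This gave 76 members among the 26301 genes counted, of which 24191 had a symbol. Expression was measured by RNA-seq of polyadenylated RNA in 3T3-L1 cells, a mouse preadipocyte line, on day 2 after induction with 1.67 μM insulin, 1 μM dexamethasone and 115 μg/mL IBMX.

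Each of 5 groups held 3 libraries, 15 libraries in all, and all 5 groups received the same induction. The knockdown set compared control (sh-Empty) cells, which carried a control retrovirus, with JMJD1A-KD (sh-Jmjd1a) cells, which carried a retroviral hairpin against Jmjd1a, the gene now named Kdm3a, which codes for a histone H3K9 demethylase. The rescue set held sh-Jmjd1a cells with a further retrovirus, for LacZ, for JMJD1A(WT), or for JMJD1A(H1122A), whose site of iron coordination is mutated. Each line was made stable by antibiotic selection after infection. Nothing in the labels says that replicates came from separate infections or cultures, so the p-values measure only the spread between these libraries, which may be technical.

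Metalloproteases of these families hold a zinc ion at the active site and are made as inactive precursors that a convertase or another protease must cut. MMPs and ADAMTS proteases cut collagens, proteoglycans and other matrix proteins, ADAMs release the outer parts of membrane proteins such as growth factor precursors, and TIMPs block the active site. In fat tissue these enzymes are known for the exchange of a fibroblast-type matrix for the basement membrane that surrounds an adipocyte.

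Library totals ranged from 11437058 to 25523148 counts (median 12916162). Levels are given as CPM, which are counts scaled to the TMM-adjusted library total within the knockdown set or within the rescue set, and are compared only within a set. The mRNA targeted was checked first: Kdm3a was 171 to 185 CPM in sh-Empty and 128 to 138 CPM in sh-Jmjd1a cells (log2 fold change -0.42), and 117 to 122 CPM with LacZ, 1639 to 1768 CPM with JMJD1A(WT) and 2103 to 2288 CPM with JMJD1A(H1122A). The summed level of 8 adipocyte markers was 5046 to 5150 CPM in sh-Empty, 2621 to 2763 in sh-Jmjd1a, 3299 to 3378 with LacZ, 3742 to 4088 with JMJD1A(WT) and 2560 to 2668 with JMJD1A(H1122A). Most of it came from Lpl, with means of 3945, 2355, 2908, 3122 and 2411 CPM in the same order. All 8 were called lower on knockdown, higher with JMJD1A(WT) than LacZ and lower with JMJD1A(H1122A) than JMJD1A(WT). The sum of 7 fibroblast and preadipocyte markers was 7842 to 8070 CPM in sh-Empty and 12660 to 13410 CPM in sh-Jmjd1a cells, and it was 14600 to 14860 CPM with LacZ, 14020 to 14580 CPM with JMJD1A(WT) and 15590 to 16430 CPM with JMJD1A(H1122A). Most of this sum came from the collagen genes Col1a1 and Col1a2, which are read again below as matrix substrates. Their means were 1168 and 3033 CPM in sh-Empty and 3122 and 6068 CPM in sh-Jmjd1a cells. Of the 7 markers, 5 were called higher and 1 lower on knockdown, the latter being the preadipocyte marker Dlk1 (log2 fold change -0.76). Pdgfra was not called (0.07). With JMJD1A(WT), 2 of the 7 were called higher and 1 lower than with LacZ. The adipocyte sum and the fibroblast and preadipocyte sum both differed between the groups of each comparison, and their part in the member results was not tested. In such bulk samples, fewer cells of a type and less RNA per cell cannot be told apart. The 5 macrophage markers summed to 14 to 62 counts per library: over the 15 libraries Ptprc and Adgre1 had 1 count each, Itgam 19, Csf1r 79 and Cd68, which other cells also express, 352. The 4 endothelial markers summed to 0 to 12 counts per library.

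A gene was tested where enough libraries held about 10 counts or more, and it was called where the adjusted p was under 0.05 (edgeR's quasi-likelihood test, adjusted by Benjamini-Hochberg over all genes tested in the set). Of the 76 members, 35 passed the count filter in both sets and 3 more, Adam22, Adamtsl2 and Adamtsl3, passed it in the rescue set only. The other 38 were not tested: 14 had 0 counts in all 15 libraries, 12 had 1 to 10 counts in all, and 12 had more, up to 109 for Adam32. All 4 Timp genes were tested, as were 9 of 21 Mmp, 11 of 19 Adamts, 5 of 5 Adamtsl and 9 of 27 Adam genes in the rescue set. None of the 11 ADAMs grouped as other ADAMs, most of which are known from the testis, was tested. A member that passed the filter through the group where it was high had to differ, which applies to those with few counts, such as Adamtsl1, Mmp9 and Timp4.

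The MMP cluster on chromosome 9 held 8 members, all on the plus strand, between positions 7272514 and 7699585 of mm9 (NCBIM37). Only Mmp3, a stromelysin that cuts proteoglycans and activates other MMPs, and Mmp13, an interstitial collagenase, were tested there, with 860 and 363 counts over the 15 libraries. Their neighbours Mmp12, Mmp10, Mmp8, Mmp27, Mmp20 and Mmp7 had 13, 0, 50, 67, 0 and 1 counts. Promoter sequences from RefSeq (GRCm38.p6, 250 bases before to 50 after the start) were matched by symbol for 46 of the 76 members. Within them, the letters TGANTCA (N for any base, which reads the same on both strands) were looked for. So was TATAAA, the letters of the TATA box, on both strands and at any place in the promoter. TGANTCA takes in the AP-1 motif, TGAGTCA or TGACTCA, but also TGAATCA and TGATTCA. Both patterns were chosen after the promoters had been seen. TGANTCA stood in 7.81% of all 32851 promoters of this length, TATAAA in 13.6% and both in 1.54%. Both stood in a promoter of 6 of the 8 cluster members (Mmp3, Mmp7, Mmp10, Mmp12, Mmp13 and Mmp20) and of 1 member elsewhere, Adam29. In Mmp20 the letters were TGAATCA, and in the others TGAGTCA or TGACTCA. The first 3 stretches show that the cluster genes with and without reads share these letters. The other 2, of Adamts1 and Mmp14, belong to abundant members whose level differed in all 4 comparisons, and of these only Adamts1 held TATAAA. Each stretch runs from 120 bases before to 20 after the start, 5′ to 3′, with TGANTCA and TATAAA in capitals.
Mmp3, chr9:7445702-7445841, plus strand: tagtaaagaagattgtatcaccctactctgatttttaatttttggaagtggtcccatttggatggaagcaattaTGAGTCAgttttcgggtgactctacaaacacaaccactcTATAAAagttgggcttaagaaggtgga
Mmp13, chr9:7272394-7272533, plus strand: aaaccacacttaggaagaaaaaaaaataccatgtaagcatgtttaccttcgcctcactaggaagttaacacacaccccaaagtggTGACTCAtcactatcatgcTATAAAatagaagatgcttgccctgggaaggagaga
Mmp10, chr9:7502222-7502361, plus strand: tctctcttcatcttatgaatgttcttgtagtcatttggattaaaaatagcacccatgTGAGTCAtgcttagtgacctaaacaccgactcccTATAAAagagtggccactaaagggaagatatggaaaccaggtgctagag
Adamts1, chr16:85803094-85803233, minus strand: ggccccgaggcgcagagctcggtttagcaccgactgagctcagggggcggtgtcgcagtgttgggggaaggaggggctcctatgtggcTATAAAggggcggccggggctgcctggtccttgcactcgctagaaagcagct
Mmp14, chr14:54431478-54431617, plus strand: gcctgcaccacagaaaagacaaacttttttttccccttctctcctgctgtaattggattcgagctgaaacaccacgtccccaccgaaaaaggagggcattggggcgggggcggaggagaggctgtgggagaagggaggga

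Per kilobase of exon, the order of levels was led by the gelatinase Mmp2, which digests denatured collagen and basement membrane collagen. In sh-Empty cells it stood at 966 ± 5.01 CPM per kilobase (SD, n = 3), followed by the versican-cutting Adamts1 at 502 ± 7.92, the inhibitor Timp2 at 234 ± 3.90 and Mmp14 at 212 ± 4.05. Mmp14 codes for the membrane-bound protease that, in a complex with TIMP2, activates the MMP2 precursor, so the 3 genes of that complex were among the 4 highest. Timp2 and Mmp14 were 224 ± 8.06 and 232 ± 13.6 CPM per kilobase in sh-Jmjd1a cells, where their ranges overlapped and the order was turned. Timp1, a secreted inhibitor of most MMPs, moved from place 12 to place 6, with 31.7 ± 4.19 CPM per kilobase in sh-Empty and 80.7 ± 5.37 in sh-Jmjd1a cells. The lowest was Adamtsl1, a matrix protein without protease activity, at 0.141 ± 0.0346 and 0.0199 ± 0.00338 CPM per kilobase.

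**Figure D1:**
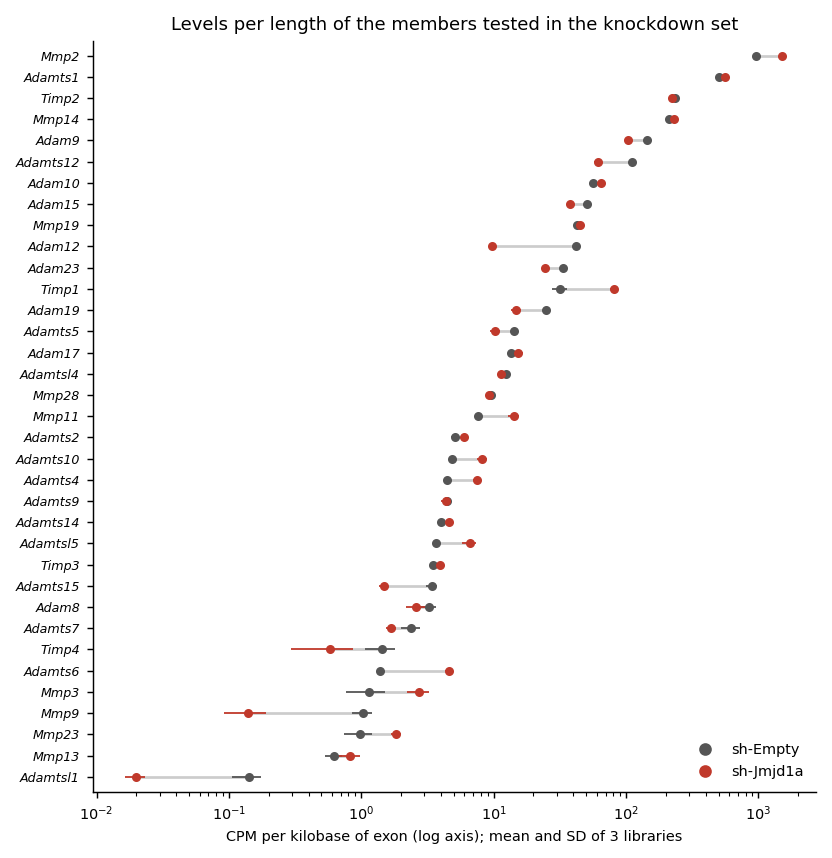
Level per kilobase of exon of the 35 members tested in the knockdown set, on a log axis, in sh-Empty (grey) and sh-Jmjd1a (red) cells, with points for the mean and bars for the SD of 3 libraries. Members are ordered by their sh-Empty level, from Mmp2 (966 CPM per kilobase) to Adamtsl1 (0.141), and Adam12, Timp1, Mmp9 and Adamtsl1 show wide gaps between the groups.

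On knockdown, 12 of the 35 members tested were called lower (34.3%) and 14 higher (40.0%), while 23.9% of all 12272 genes tested were called lower and 22.3% higher. The 12 include Adamtsl1, Mmp9 and Timp4, which had few counts and were highest in sh-Empty. With at least 10 counts in every library these 3 were not tested. Then 9 of 32 members were called lower and 14 higher, beside 2859 and 2672 of 11593 genes. In the main fit, the median of the absolute log2 fold changes was 0.468 over the members and 0.222 over all genes tested. By family, 5 of 9 MMPs rose and 1 fell, 5 of 8 ADAMs fell and 2 rose, 4 of 11 ADAMTS genes fell and 5 rose, and of the 4 TIMPs 1 rose and 1 fell. Between JMJD1A(WT) and LacZ, 6 of 38 members were called lower with JMJD1A(WT) and 6 higher (15.8% each), while 4.52% of the 12557 genes tested were lower and 4.98% higher. Between JMJD1A(H1122A) and JMJD1A(WT), 9 members were called lower (23.7%) and 10 higher (26.3%), with 11.7% and 12.1% of all genes tested. Between JMJD1A(H1122A) and LacZ, 5 members were called lower (13.2%) and 7 higher (18.4%), with 4.46% and 4.78% of all genes tested. Without JMJD1A(H1122A) replicate 1, the last count was 3 members called higher, with Adam10, Adamts4, Adamtsl4 and Mmp11 lost. The count over all genes fell there as well, from 600 of 12557 to 348 of 12739. The 3 rescue comparisons share libraries, so their calls are not independent of each other.

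**Figure D2:**
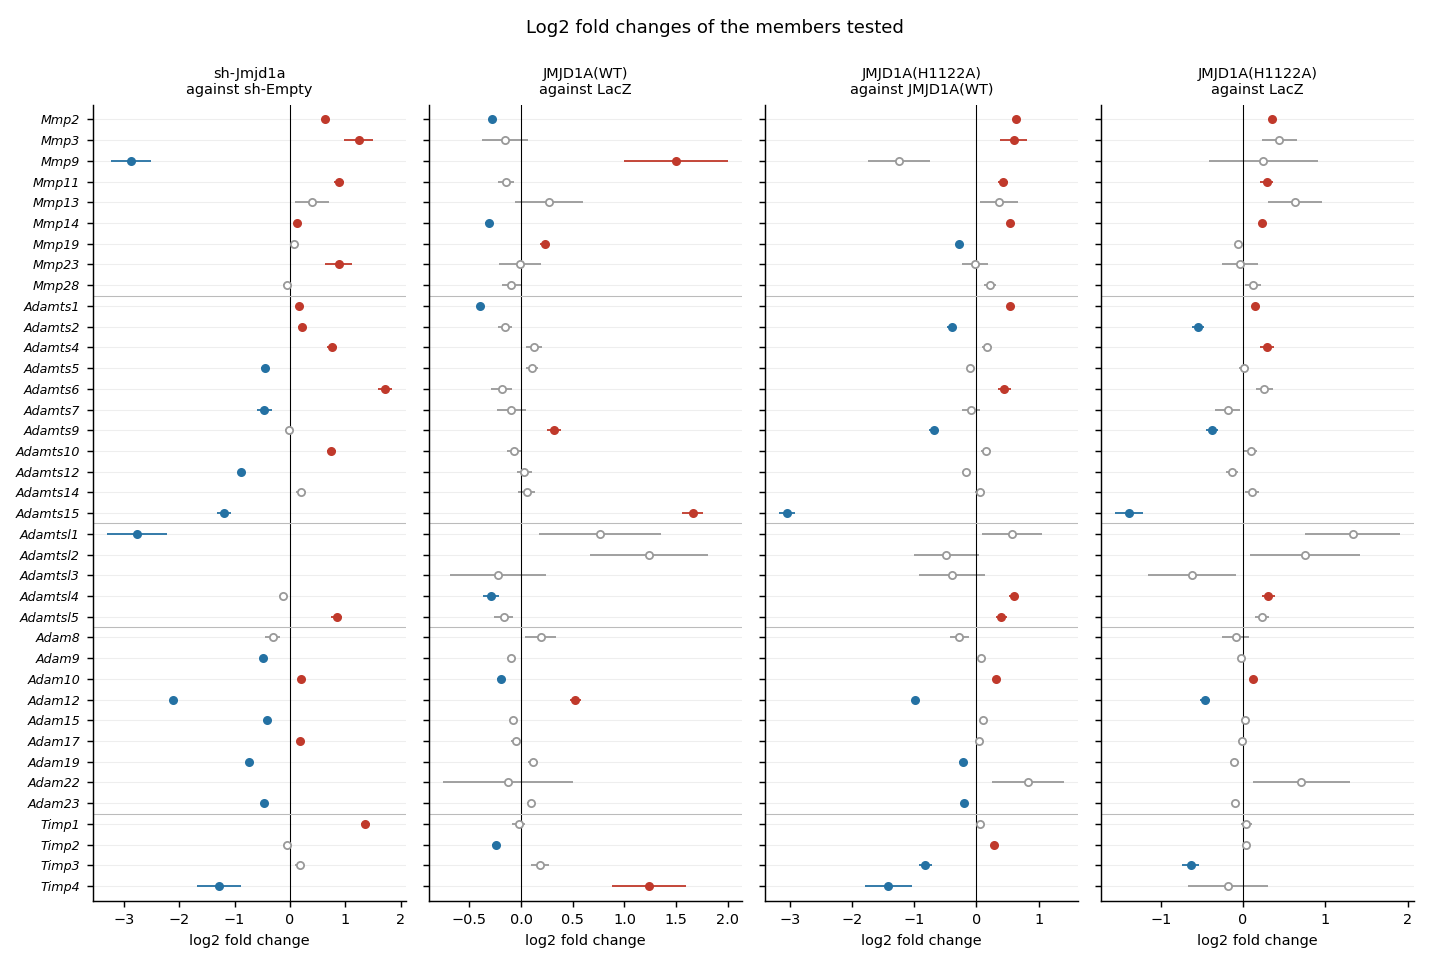
Log2 fold change and standard error of each member tested in the 4 comparisons, on separate axes per comparison, with filled red for called higher, filled blue for called lower and open grey for not called. Adamts15 and Adam12 lie to the left on knockdown, to the right with JMJD1A(WT) against LacZ and to the left again in both comparisons of JMJD1A(H1122A), while Mmp2, Mmp14 and Adamts1 show the opposite signs throughout.

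The knockdown and the JMJD1A(WT) against LacZ comparison share no library. Of the 35 members tested in both sets, 4 (11.4%) were lower on knockdown and higher with JMJD1A(WT), namely Adam12, Adamts15, Mmp9 and Timp4, while 2.75% of the 12202 genes tested in both sets met both calls. With at least 10 counts required in every library, Mmp9 and Timp4 were not tested, and 2 of 32 members (6.25%), Adam12 and Adamts15, met both calls, with 2.71% of 11428 genes. Another 4 (11.4%) were higher on knockdown and lower with JMJD1A(WT), namely Adam10, Adamts1, Mmp2 and Mmp14, where the share over all genes was 2.43%. With at least 10 counts in every library the same 4 met both calls (12.5% of 32 members, beside 2.59% of all genes). Of the 26 members called on knockdown, 18 (69.2%) were not called between JMJD1A(WT) and LacZ, while the share was 85.1% over the 5648 genes called on knockdown and tested in both sets. Of this pair of comparisons, Adamts9, Adamtsl4, Mmp19 and Timp2 were called only between JMJD1A(WT) and LacZ, and the share of all genes so called was not counted.

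Among proteases of proteoglycans, Adamts15 (chr9:30706740-30730037 of mm9, minus strand), which cuts versican and aggrecan, changed in all 4 comparisons. Its level was 22.2, 18.4 and 19.8 CPM in the sh-Empty libraries and 9.60, 8.39 and 8.39 CPM in the sh-Jmjd1a libraries. In the rescue set it was 13.9, 12.04 and 12.5 CPM with LacZ, 46.3, 40.9 and 36.6 CPM with JMJD1A(WT) and 5.87, 4.74 and 4.03 CPM with JMJD1A(H1122A). No groups of a set overlapped, and the mutant lay below LacZ as well as below the wild type. The log2 fold change was -1.20 ± 0.12 (SE) on knockdown (adjusted p = 4.27e-09) and 1.66 ± 0.10 for JMJD1A(WT) against LacZ (adjusted p = 3.03e-17). For JMJD1A(H1122A) it was -3.05 ± 0.13 against JMJD1A(WT) (adjusted p = 3.27e-23) and -1.39 ± 0.17 against LacZ (adjusted p = 4.03e-08). JMJD1A(WT) cells thus held 8.45 times the mean CPM of JMJD1A(H1122A) cells, the largest ratio of any member tested in that comparison. Its neighbour Adamts8 starts 20109 bases away on the opposite strand and had 10 counts over all 15 libraries.

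Adam12 (chr7:141074882-141423829 of mm9, minus strand), an ADAM that releases heparin-binding EGF and cuts binding proteins of insulin-like growth factors, showed the same order. It stood at 352, 352 and 337 CPM in sh-Empty and at 79.7, 78.3 and 82.9 CPM in sh-Jmjd1a libraries, 4.32 times lower by the group means (log2 fold change -2.11 ± 0.05, adjusted p = 8.12e-24). Adam12 in the rescue set was 114, 102 and 107 CPM with LacZ, 165, 154 and 147 CPM with JMJD1A(WT), and 81.8, 82.3 and 70 CPM with JMJD1A(H1122A). The groups did not overlap, and the log2 fold change was 0.53 ± 0.05 for JMJD1A(WT) against LacZ (adjusted p = 4.53e-10), -0.98 ± 0.06 for JMJD1A(H1122A) against JMJD1A(WT) (adjusted p = 4.34e-18) and -0.46 ± 0.06 against LacZ (adjusted p = 2.46e-07).

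Mmp9 (chr2:164766280-164781350 of mm9, plus strand), the other gelatinase, and Timp4 (chr6:115195634-115201867 of mm9, minus strand), an inhibitor known from heart and fat, had few reads. Both passed the filter of the knockdown set through their sh-Empty libraries, so a fall there was partly built into the choice. Mmp9 had 46, 34 and 60 counts in sh-Empty and 8, 5 and 5 in sh-Jmjd1a libraries, with no overlap in CPM (log2 fold change -2.87 ± 0.37, adjusted p = 2.38e-07). With LacZ it had 9, 3 and 8 counts, with JMJD1A(WT) 25, 6 and 38, and with JMJD1A(H1122A) 5, 14 and 2. These groups overlapped, and the call for JMJD1A(WT) against LacZ stood at the threshold (log2 fold change 1.5 ± 0.50, adjusted p = 0.0495). It was lost with DESeq2 (adjusted p = 0.171), with the legacy form of the test (0.064), without robust estimation (0.0519) and on leaving out any of 6 single libraries, namely each LacZ library, JMJD1A(WT) replicates 1 and 3 and JMJD1A(H1122A) replicate 1 (adjusted p from 0.058 to 0.237).

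Timp4 had 18, 30 and 29 counts in sh-Empty and 14, 5 and 11 in sh-Jmjd1a libraries. In the rescue set it had 22, 7 and 11 counts with LacZ, 33, 36 and 45 with JMJD1A(WT) and 9, 10 and 12 with JMJD1A(H1122A), and in CPM the JMJD1A(WT) libraries lay above all the others. The log2 fold change was -1.29 ± 0.40 on knockdown (adjusted p = 0.0088), 1.24 ± 0.35 for JMJD1A(WT) against LacZ (adjusted p = 0.0167) and -1.42 ± 0.38 for JMJD1A(H1122A) against JMJD1A(WT) (adjusted p = 0.00421). The first call was lost without sh-Empty replicate 2 (adjusted p = 0.0557) or sh-Jmjd1a replicate 2 (0.0644). The second was lost without LacZ replicate 2 or 3 (0.135 and 0.0826) or JMJD1A(WT) replicate 1 or 2 (0.0561 and 0.0652).

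**Figure D3:**
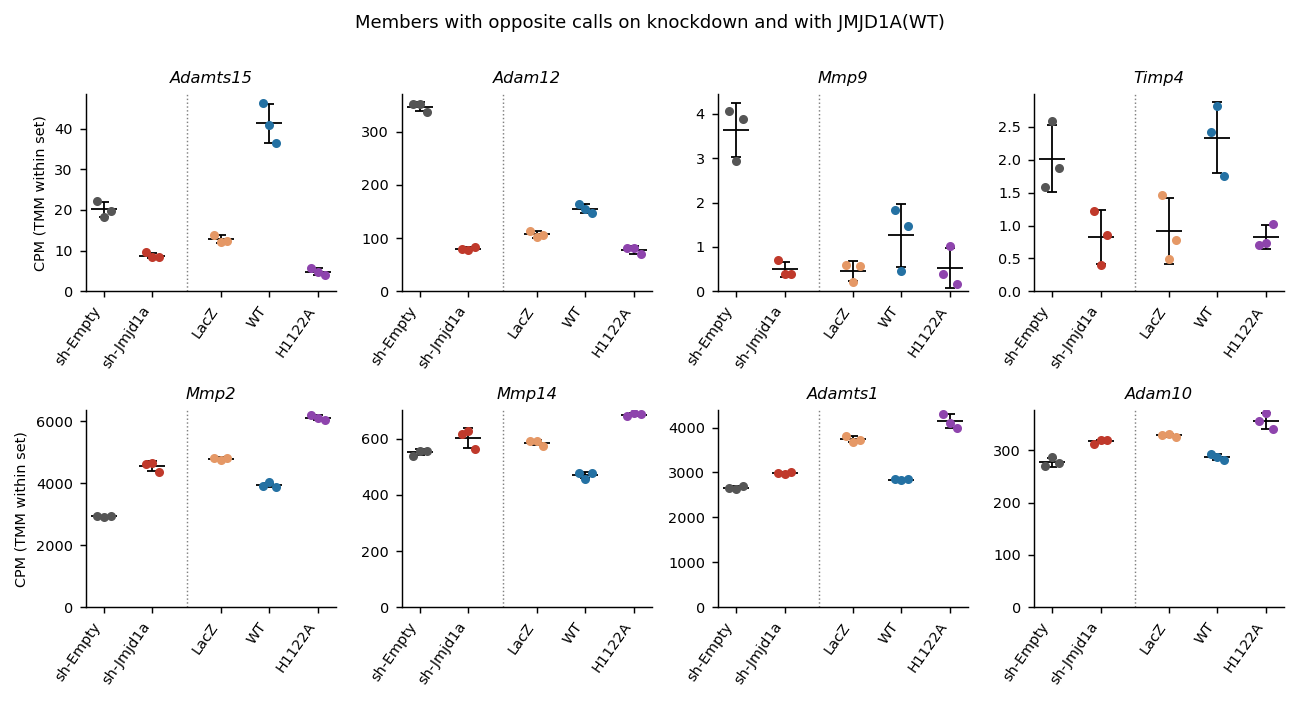
CPM of the 8 members with opposite calls on knockdown and with JMJD1A(WT), by library (points), with the mean and SD of 3 libraries (black), and a dotted line between the knockdown set and the rescue set, which were scaled apart. The JMJD1A(WT) libraries lie above the LacZ and JMJD1A(H1122A) libraries for Adamts15, Adam12 and Timp4 and below them for Mmp2, Mmp14, Adamts1 and Adam10, while those of Mmp9 overlap.

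In the opposite direction, the abundant members Mmp2, Mmp14, Adamts1 and Adam10 differed with little spread between libraries. Other abundant members did not share this direction on knockdown, where Timp2 was not called and Adam9 (-0.48) and Adamts12 (-0.88) fell. Mmp2 (chr8:95351227-95377316 of mm9, plus strand) was 2946, 2918 and 2943 CPM in sh-Empty and 4621, 4648 and 4363 CPM in sh-Jmjd1a libraries. It was 4819, 4746 and 4804 CPM with LacZ, 3911, 4023 and 3882 CPM with JMJD1A(WT) and 6192, 6108 and 6022 CPM with JMJD1A(H1122A). No groups overlapped, and LacZ lay between the wild type and the mutant. The log2 fold change of Mmp2 was 0.63 ± 0.03 on knockdown (adjusted p = 3.28e-15), -0.28 ± 0.03 for JMJD1A(WT) against LacZ (adjusted p = 4.27e-10), 0.63 ± 0.03 for JMJD1A(H1122A) against JMJD1A(WT) (adjusted p = 6.78e-22) and 0.35 ± 0.03 against LacZ (adjusted p = 1.93e-12).

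Mmp14 (chr14:55050441-55060095 of mm9, plus strand), which codes for the activator of MMP2, was 539, 558 and 557 CPM in sh-Empty and 616, 628 and 562 CPM in sh-Jmjd1a libraries. This difference was small (log2 fold change 0.13 ± 0.04, adjusted p = 0.0132) and its call was lost without sh-Empty replicate 1 (adjusted p = 0.0889) or sh-Jmjd1a replicate 1 or 2 (0.0726 and 0.0835). Mmp14 in the rescue set was 594, 590 and 575 CPM with LacZ, 477, 458 and 478 CPM with JMJD1A(WT) and 682, 690 and 687 CPM with JMJD1A(H1122A), with no overlap. Its log2 fold change was -0.32 ± 0.03 for JMJD1A(WT) against LacZ (adjusted p = 2.2e-09), 0.54 ± 0.03 for JMJD1A(H1122A) against JMJD1A(WT) (adjusted p = 5.2e-17) and 0.23 ± 0.03 against LacZ (adjusted p = 5.77e-06).

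Adamts1 (chr16:85794072-85803358 of mm9, minus strand) was 2664 ± 42.0 CPM in sh-Empty and 2985 ± 15.9 CPM in sh-Jmjd1a cells, and 3741 ± 60.0 CPM with LacZ, 2842 ± 17.01 CPM with JMJD1A(WT) and 4139 ± 154 CPM with JMJD1A(H1122A) (SD, n = 3 each). The log2 fold changes of Adamts1 were 0.16, -0.40, 0.54 and 0.15 in the order knockdown, JMJD1A(WT) against LacZ, JMJD1A(H1122A) against JMJD1A(WT) and JMJD1A(H1122A) against LacZ, with adjusted p of 0.000119, 1.07e-13, 1.21e-18 and 0.00106. Adam10 (chr9:70526804-70628036 of mm9, plus strand), the sheddase that makes the first cut in Notch receptors, was 277 ± 8.71 and 317 ± 3.58 CPM in the knockdown set. With LacZ, JMJD1A(WT) and JMJD1A(H1122A) Adam10 was 328 ± 2.78, 288 ± 5.76 and 356 ± 15.7 CPM. Its log2 fold changes in the same order were 0.19, -0.19, 0.31 and 0.12. The last, with an adjusted p of 0.0473, was lost in 4 other settings of the fit (adjusted p from 0.0506 to 0.0584) and in 7 of the 9 fits that left out a library, with adjusted p up to 0.277.

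The inhibitors did not move as a group. Timp1 (chrX:20447292-20451861 of mm9, plus strand) was 32.4, 25.8 and 26.2 CPM in sh-Empty and 75.8, 72.7 and 66.4 CPM in sh-Jmjd1a libraries, with no overlap and a log2 fold change of 1.35 ± 0.08 (adjusted p = 4.18e-14). In the rescue set Timp1 was 60.7, 62.2 and 70.7 CPM with LacZ, 64.0, 67.5 and 60.0 CPM with JMJD1A(WT) and 63.7, 69.3 and 65.5 CPM with JMJD1A(H1122A). These ranges overlapped, and the log2 fold change of JMJD1A(WT) against LacZ was -0.02, with a 95% interval from -0.15 to 0.10. Timp2 was 912 ± 15.2 CPM in sh-Empty and 874 ± 31.4 CPM in sh-Jmjd1a cells, which was not called (log2 fold change -0.06, 95% interval from -0.14 to 0.01). Timp2 was lower with JMJD1A(WT) (772, 768 and 755 CPM) than with LacZ (858, 932 and 926 CPM) or JMJD1A(H1122A) (919, 952 and 919 CPM), with log2 fold changes of -0.24 against LacZ (adjusted p = 9.23e-07) and 0.28 for the mutant against the wild type (adjusted p = 1.33e-08). Timp3, the inhibitor that binds to the matrix and also blocks ADAM17 and aggrecanases, was lowest with the mutant, at 17.2, 14 and 15.7 CPM. It was 24.7, 25.1 and 22.9 CPM with LacZ and 26.2, 30.3 and 26.8 CPM with JMJD1A(WT), and its log2 fold change for JMJD1A(H1122A) was -0.82 against JMJD1A(WT) (adjusted p = 9.38e-09) and -0.64 against LacZ (adjusted p = 2.37e-05). On knockdown Timp3 was not called (0.17, 95% interval from 0.01 to 0.34, adjusted p = 0.0793). Exons of Timp3 overlap Syn3 on the opposite strand over 1733 bases, and the strand setting of the counting is not given in the sources used here.

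**Figure D4:**
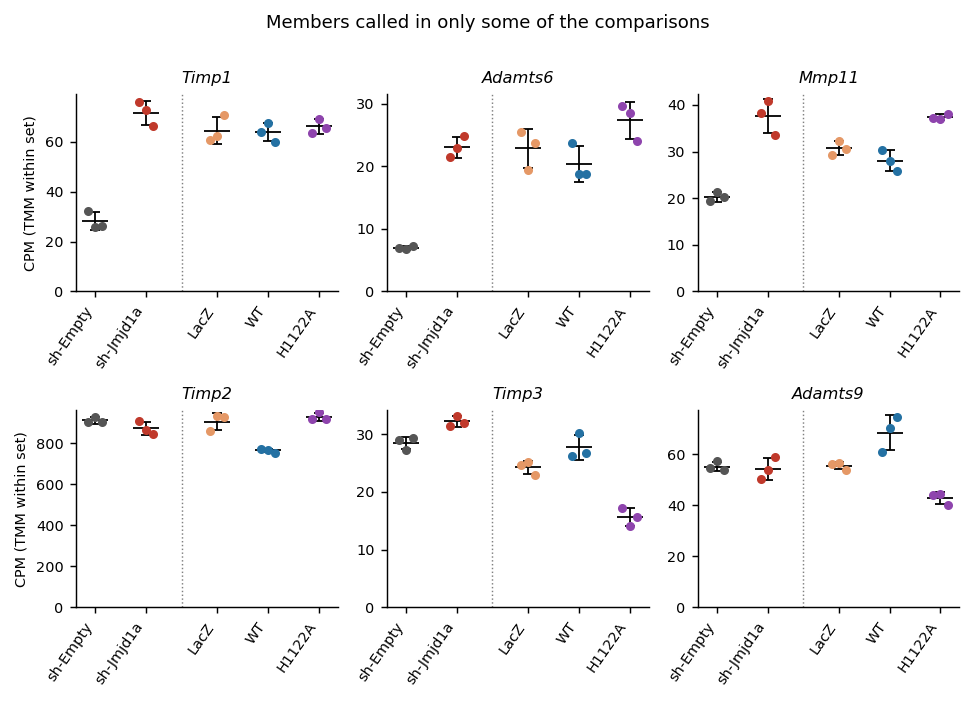
CPM of 6 members called in some comparisons only, by library (points), with the mean and SD of 3 libraries (black) and a dotted line between the knockdown and rescue sets. Timp1 and Adamts6 rose on knockdown, and their LacZ and JMJD1A(WT) libraries overlap, with Adamts6 and Mmp11 higher in the JMJD1A(H1122A) than in the JMJD1A(WT) libraries, while Timp3 and Adamts9 are lowest in the JMJD1A(H1122A) libraries and Timp2 is lowest in the JMJD1A(WT) libraries.

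Among the other MMPs, Mmp3 had 29, 15 and 36 counts in sh-Empty and 56, 73 and 52 in sh-Jmjd1a libraries (log2 fold change 1.24 ± 0.26, adjusted p = 0.000215). Its level with JMJD1A(H1122A), 5.64, 5.83 and 5.74 CPM, lay above the 3.16, 5.63 and 3.19 CPM with JMJD1A(WT), but by little in 1 library (log2 fold change 0.60, adjusted p = 0.0345). That call was lost with DESeq2 (adjusted p = 0.1), with the legacy test (0.0545) and on leaving out JMJD1A(WT) replicate 1 or 3 or any JMJD1A(H1122A) library (0.076 to 0.277). Mmp13 was 1.67 ± 0.24 CPM in sh-Empty and 2.21 ± 0.41 CPM in sh-Jmjd1a cells and was called in no comparison. Mmp11, stromelysin-3, known from stromal fibroblasts, was 19.3, 21.3 and 20.3 CPM in sh-Empty and 38.2, 40.8 and 33.7 CPM in sh-Jmjd1a libraries (log2 fold change 0.89 ± 0.09, adjusted p = 3.52e-09). With JMJD1A(WT) Mmp11 was 28.1 ± 2.27 CPM and with LacZ 30.7 ± 1.52 CPM, a difference that was not called (-0.15, 95% interval from -0.31 to 0.02), and with JMJD1A(H1122A) it was 37.4 ± 0.57 CPM, higher than with JMJD1A(WT) (0.43, adjusted p = 4.62e-05). The call of Mmp11 against LacZ (0.28, adjusted p = 0.0176) was lost without LacZ replicate 1 or 3 or JMJD1A(H1122A) replicate 1 or 3 (adjusted p from 0.0554 to 0.0756). The membrane-tethered Mmp23 rose on knockdown from 2.27 ± 0.54 to 4.29 ± 0.37 CPM (log2 fold change 0.88, adjusted p = 0.00386). Mmp19 rose with JMJD1A(WT) against LacZ (0.23, adjusted p = 0.000198) and was lower with the mutant than with the wild type (-0.29, adjusted p = 2.44e-06).

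Among the other ADAMTS genes, Adamts6, which like Adamts10 is known for its link to fibrillin microfibrils, was 6.96, 6.72 and 7.32 CPM in sh-Empty and 21.5, 22.9 and 24.8 CPM in sh-Jmjd1a libraries. Its rise on knockdown was the largest of the members tested on the log2 scale (1.72 ± 0.12, adjusted p = 2.03e-12). The LacZ libraries of Adamts6 (25.5, 19.5 and 23.8 CPM) and the JMJD1A(WT) libraries (23.7, 18.8 and 18.7 CPM) overlapped, with a log2 fold change of -0.19 and a 95% interval from -0.40 to 0.02. Adamts6 with JMJD1A(H1122A) was 29.6, 28.5 and 24.0 CPM, above every JMJD1A(WT) library (0.45, adjusted p = 0.00102). The aggrecanase Adamts4 rose on knockdown from 21.3 ± 0.46 to 36.0 ± 2.32 CPM (0.76, adjusted p = 2.32e-08), and Adamts10 from 26.7 ± 1.01 to 44.6 ± 3.79 CPM (0.75, adjusted p = 1.21e-08). Adamts5, the other main aggrecanase, fell from 115 ± 3.90 to 83.4 ± 6.94 CPM (-0.46, adjusted p = 1.66e-07). Adamts12, which cuts cartilage oligomeric matrix protein, fell from 715, 680 and 704 CPM to 387, 355 and 401 CPM (-0.88 ± 0.04, adjusted p = 4.41e-16), while the interval of its difference between JMJD1A(WT) and LacZ ran from -0.13 to 0.19. Adamts7, of similar substrates, fell as well (-0.47, adjusted p = 0.00561), a call lost without sh-Empty replicate 1 (0.0601).

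Adamts9, a proteoglycanase, was 55.2 ± 1.83 CPM in sh-Empty and 54.4 ± 4.26 CPM in sh-Jmjd1a cells and was not called on knockdown. In the rescue set Adamts9 was 56.4, 56.4 and 53.9 CPM with LacZ, 60.8, 70.3 and 74.6 CPM with JMJD1A(WT) and 43.9, 44.4 and 40.1 CPM with JMJD1A(H1122A), and no groups overlapped. Its log2 fold change was 0.32 for JMJD1A(WT) against LacZ (adjusted p = 0.00051), -0.69 for JMJD1A(H1122A) against JMJD1A(WT) (adjusted p = 7.84e-11) and -0.37 against LacZ (adjusted p = 0.000395). Exons of Adamts9 overlap those of A730049H05Rik and Gm15737, both on the opposite strand, over 1805 bases. The procollagen N-proteinase Adamts2, which trims fibrillar collagen precursors, was 53.4 ± 1.36 CPM with LacZ, 47.5 ± 3.87 CPM with JMJD1A(WT) and 36.5 ± 2.52 CPM with JMJD1A(H1122A). It was lower with the mutant than with JMJD1A(WT) (-0.40, adjusted p = 4.48e-05) and than with LacZ (-0.55, adjusted p = 4.62e-07), and its rise on knockdown (0.22, adjusted p = 0.00999) was lost without sh-Empty replicate 1 (adjusted p = 0.0703).

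Of the ADAMTS-like proteins, which lack the protease domain, Adamtsl1 had 13, 22 and 24 counts in sh-Empty and 2, 3 and 3 in sh-Jmjd1a libraries (log2 fold change -2.76 ± 0.54, adjusted p = 0.000106). It passed the filter there through its sh-Empty libraries, so this fall was built into the choice and the p-value lends it no weight. In the rescue set Adamtsl1 was 0.371 CPM with LacZ, 0.615 with JMJD1A(WT) and 0.935 with JMJD1A(H1122A), and it was not called. Adamtsl5 rose from 17.4 ± 0.70 to 31.1 ± 3.80 CPM (0.84, adjusted p = 5.05e-08). Adamtsl4, which binds fibrillin, was 52.0 ± 2.39 CPM in sh-Empty and 47.8 ± 2.15 CPM in sh-Jmjd1a cells, which was not called. With LacZ, JMJD1A(WT) and JMJD1A(H1122A) Adamtsl4 was 37.0 ± 2.23, 30.3 ± 1.07 and 45.8 ± 3.64 CPM, and it was lower with JMJD1A(WT) than LacZ (-0.29, adjusted p = 0.00884), a call lost without LacZ replicate 1 (adjusted p = 0.0693). It was higher with the mutant than with JMJD1A(WT) (0.60, adjusted p = 2.81e-08).

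Of the remaining sheddases, Adam9 fell on knockdown from 581, 581 and 584 CPM to 409, 423 and 418 CPM (log2 fold change -0.48 ± 0.04, adjusted p = 1.24e-11) and was not called in the rescue set. Adam19, which cuts neuregulin precursors, fell from 178, 191 and 187 CPM to 102, 110 and 122 CPM (-0.73 ± 0.05, adjusted p = 6.7e-12), and Adam15 fell from 311 ± 7.26 to 234 ± 8.80 CPM (-0.41, adjusted p = 4.29e-09). Adam19 in the rescue set was 129 ± 7.64 CPM with LacZ, 140 ± 5.64 CPM with JMJD1A(WT) and 120 ± 8.01 CPM with JMJD1A(H1122A), lower with the mutant than with JMJD1A(WT) (-0.22, adjusted p = 0.000857). Adam23, which has no active site, fell on knockdown from 368 ± 4.67 to 267 ± 5.28 CPM (-0.46, adjusted p = 1.02e-10) and was also lower with the mutant than with JMJD1A(WT) (-0.20, adjusted p = 0.000126). Adam17, the converting enzyme of tumour necrosis factor, was 96.9, 96.97 and 98.7 CPM in sh-Empty and 105, 104 and 122 CPM in sh-Jmjd1a libraries (0.18, adjusted p = 0.0127), a call lost without sh-Jmjd1a replicate 3 (adjusted p = 0.0925). Adam17 in the rescue set was 111 ± 2.03, 108 ± 4.50 and 110 ± 2.67 CPM and was not called. Exons of Adam17, Adamts7, Mmp11, Mmp19 and Mmp28 overlap those of other genes over 73 to 789 bases, so reads there may be shared. Adam8, Adam22, Adamts14, Adamtsl2, Adamtsl3, Mmp13 and Mmp28 were the 7 members tested that were called in no comparison.

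A list of 55 other genes of the pathway was read beside the members: convertases, regulators, plasminogen activators, partners of ADAM10 and ADAM17, shed proteins, matrix substrates and astacin-family proteases with their enhancers. Of 40 tested on knockdown, 13 were called lower and 20 higher, beside 23.9% and 22.3% of all genes tested. Of 39 tested in the rescue set, 8 were lower and 4 higher with JMJD1A(WT) than LacZ (20.5% and 10.3%, beside 4.52% and 4.98% of all genes), and 5 were lower and 18 higher with the mutant than with the wild type (12.8% and 46.2%, beside 11.7% and 12.1%). Among matrix substrates 9 of 11 rose (81.8%) and 2 fell (18.2%) on knockdown, and 3 were called lower and 1 higher with JMJD1A(WT) than LacZ. The fibrillar collagen genes rose, Col1a1 from a mean of 1168 to 3122 CPM (log2 fold change 1.42), Col1a2 by 1.00 and Col3a1 by 0.86, and the basement membrane collagen genes Col4a1 and Col4a2 rose by 0.23 and 0.14, while Nid1 (-0.20) and Dcn (-0.35) fell. Col1a1 was 3671 CPM with LacZ and 3661 CPM with JMJD1A(WT), and the difference was not called. Col3a1 was called higher with JMJD1A(WT) than LacZ (0.12, adjusted p = 0.0029) and lower with the mutant than with the wild type (-0.17), and Col1a2 was higher with the mutant (0.24). Versican (Vcan), the substrate of Adamts1 and Adamts15, rose on knockdown (0.24) and was lower with JMJD1A(WT) than LacZ (-0.15, adjusted p = 0.0332). Fibrillin-1 (Fbn1) rose by 0.23 on knockdown, was lower with JMJD1A(WT) than with LacZ (-0.40) and was higher in cells with the mutant than in those with the wild type (0.48).

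Of 3 genes of plasminogen activation, which feeds MMP activation, 2 rose on knockdown, the receptor Plaur (1.07) and the activator Plat (0.52), while the activator Plau was not called (0.22, adjusted p = 0.731). Among 11 shed ligands and receptors tested, 5 rose and 5 fell on knockdown (45.5% each, beside 22.3% and 23.9% of all genes). The growth factors Ereg (1.85) and Hbegf (1.38) and the hyaluronan receptor Cd44 (0.80) rose, while Nrg1 (-0.84) and Dlk1 (-0.76), a preadipocyte protein that ADAM17 sheds, fell. Dlk1 was 557 CPM with LacZ, 752 CPM with JMJD1A(WT) and 386 CPM with JMJD1A(H1122A), with a log2 fold change of 0.43 for JMJD1A(WT) against LacZ (adjusted p = 6.89e-13). Of the ADAM10 and ADAM17 partners 3 of 6 fell on knockdown, beside 23.9% of all genes, among them Rhbdf2 (-0.60), which carries ADAM17 to the cell surface. The convertase Furin fell by 0.12 on knockdown, with overlapping groups (adjusted p = 0.0294). Reck, a membrane inhibitor of MMPs, was not called on knockdown (0.19, adjusted p = 0.101) and stood higher with the mutant than with the wild type (0.49, adjusted p = 0.000163).

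**Figure D5:**
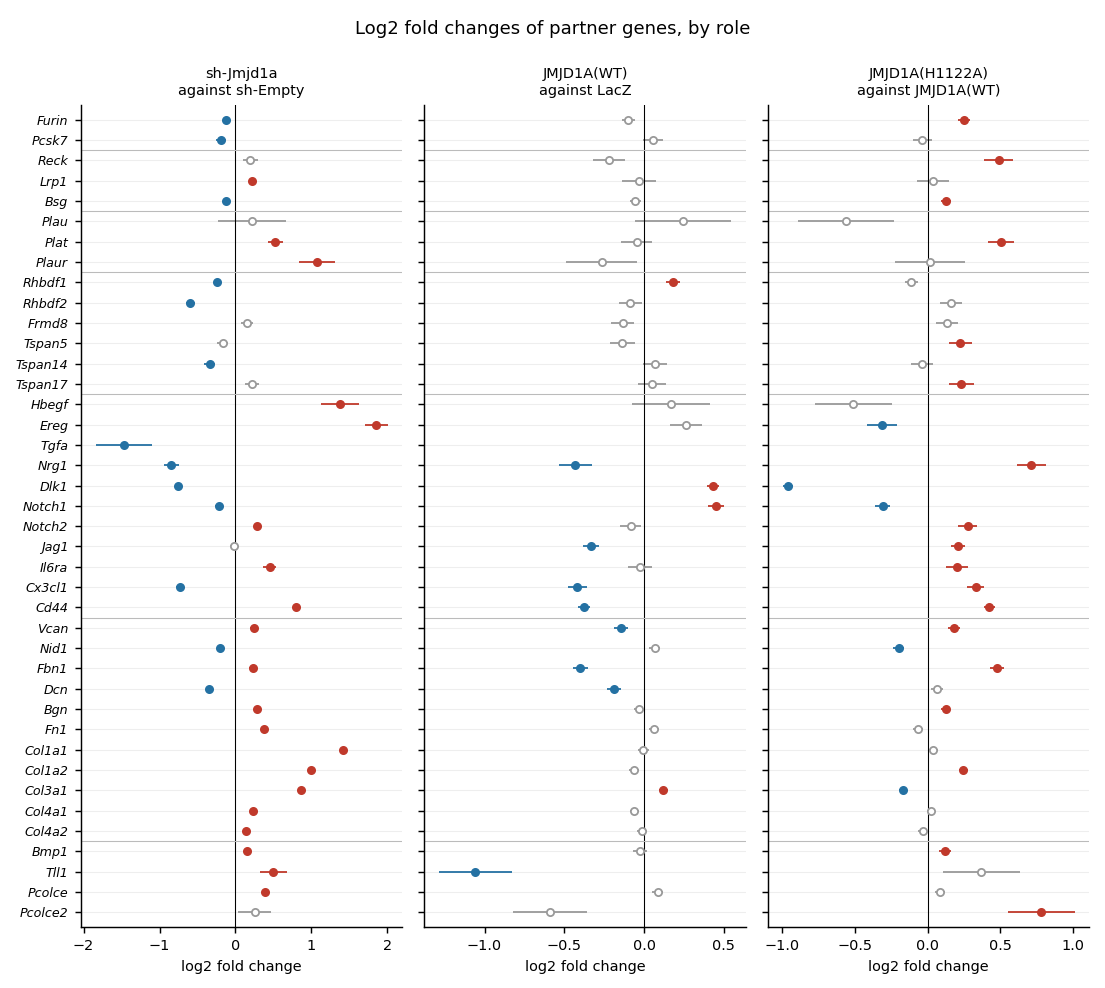
Log2 fold change and standard error of the partner genes tested, in the order convertases, regulators, plasminogen activators, ADAM partners, shed proteins, matrix substrates and astacin-family genes (grey lines between roles), with filled red for called higher, filled blue for called lower and open grey for not called. The collagen genes Col1a1, Col1a2 and Col3a1 lie at 1.42, 1.00 and 0.86 on knockdown and within 0.12 of 0 for JMJD1A(WT) against LacZ, where Col3a1 alone of the 3 was called (0.12).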

How the data were processed

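RNA was measured in 15 libraries of 3T3-L1 cells. Per the paper and the submitters' processing notes, the authors used fastp for trimming, HISAT2 for alignment to mm9 and featureCounts for counting. The deposited values are raw counts per Entrez gene number. The labels and the paper's methods name different NEBNext kits, and the strand setting is not given in the sources used here, so reads of overlapping genes may be shared, which touches 7 tested members.

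Symbols came from RefSeq (GRCm38.p6), positions and exon lengths from GENCODE on NCBIM37, the assembly of mm9. The 6 libraries of the knockdown set and the 9 of the rescue set had separate fits in R 4.3.3 with edgeR 4.0.16 and limma 3.58.1: TMM, filterByExpr with a minimum count of 10, robust dispersions, the quasi-likelihood F test (two-sided) and Benjamini-Hochberg adjustment at 0.05 over all genes tested. Standard errors and 95% intervals, which are not adjusted for the number of genes, were derived from the F statistic. Scripts were tested on simulated data. Depth limits members of few counts most. Within a group, chi-square over its degrees of freedom was 2.06 to 5.22 for pairs of replicates, more than counting noise gives, so each library counted once.

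The members, the gene lists and the rule for genes named were chosen with earlier results of these data known. Values are given for 20 listed members, for the called members with the largest changes (up to 8 per direction and a mean of at least 1 CPM), and for members that make up a count of 5 or fewer. Partner genes were named as examples after their values were seen, and 1 planned partner gene is not reported here. Alternatives were RLE size factors, DESeq2 1.42.0, other count filters, all 15 libraries or only the 2 groups compared in a fit, the legacy and non-robust tests, leaving out each library, and blocking on the replicate number. One planned item, protein sequence, is not used here.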

Additional observations from a re-analysis of the deposited data

How the results depend on the processing

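Of 69 called member results, 0 were reversed in any alternative, and 9 of 588 refits with another setting and 38 of 543 refits with a library left out lost the call, over 13 results in all. Of 80 uncalled results, 12 were called in some alternative. With at least 10 counts in every library, Mmp9, Timp4 and Adamtsl1 were not tested. On knockdown 9 of 32 members were then called lower, beside 2859 of 11593 genes. In the main fit these counts were 12 of 35 members and 2931 of 12272 genes. The count of members higher with JMJD1A(H1122A) than LacZ ran from 3 to 7 over fits that left out a library. The count over all genes ran from 348 to 651 in those fits, and the cause was not tested. Deviations of same-numbered libraries were at most weakly correlated (from -0.0442 to 0.0321 in the 3 pairs of the knockdown set and from -0.015 to 0.0541 in the 9 of the rescue set). Pairs with different numbers ran from -0.0403 to 0.0645 in the knockdown set and from -0.0566 to 0.0227 in the rescue set. With the replicate number as a block, 12 members were lower and 14 higher on knockdown, beside 2790 and 2635 of all 12272 genes. For the wild type against LacZ 7 and 6 members were called, beside 683 and 710 of 12557 genes. For the mutant, 10 and 11 were called against the wild type (1610 and 1673 of all genes) and 5 and 7 against LacZ (682 and 731). No scaling moved the median of all genes by more than 0.1 on the log2 scale. Each scaling used sets most genes near 0, so this could hardly come out otherwise and is no check of the scaling. Of the members tested, Adam22, Adamtsl2, Adamtsl3, Adamtsl1, Mmp9, Timp4 and Mmp13 had the fewest counts, from 101 to 363 over the 15 libraries.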

Other observations

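Protein-coding genes of these families whose symbol ends in a letter, 9 in all, were outside the rule. Adam1a, an ADAM known from sperm, had 416 counts over the 15 libraries and up to 45 in one, Adam1b had 14, Mmp1b 2 and Mmp1a 1, and the other 5 had 0.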
